A study of Homo sapiens with 2 samples.

Results

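The replication-dependent histone genes were examined in DNase I hypersensitivity maps of Saos-2 and U2OS, human cell lines that were each established from an osteosarcoma, a malignant bone tumour. Members were the protein-coding RefSeq genes on GRCh38.p14 whose symbols are H1-1 to H1-6, or H2AC, H2BC, H3C or H4C followed by digits. The rule gave 69 of 20037 protein-coding genes, with 55 on chromosome 6, 13 on chromosome 1 and 1 on chromosome 12. The members were 6 linker histone genes, 17 H2A, 18 H2B, 13 H3 and 15 H4 genes. The labels name no treatment for either line, and each was profiled with 1 library. There is therefore no replicate error, no difference was tested, and every comparison below is between these 2 libraries.

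Histones package DNA into nucleosomes: H2A, H2B, H3 and H4 form the core, and H1 binds the linker DNA where it enters and leaves. The replication-dependent genes supply these proteins in S phase, when new DNA has to be wrapped. They are mostly short and without introns, and their mRNAs end in a stem-loop bound by SLBP in place of a poly(A) tail. Many are arranged in clusters that gather in the histone locus body around NPAT, and many H2A and H2B genes lie head to head with a shared promoter.

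A hotspot is a stretch that the authors called as rich in DNase I cuts, and the deposited lists held 51556 hotspots for Saos-2 and 63388 for U2OS. Read depth is unknown for both, so a missing hotspot means only that none was called. A gene was counted when a hotspot overlapped its span plus 1 kb on both sides by at least 1 bp. The −log10 significance of a hotspot is the authors' own value within its library and ran from 1.30 to 100 in both lists. As a check on the labelled bone origin, the osteoblast genes RUNX2 and ALPL had a hotspot in both lines, SP7 in Saos-2 but not U2OS, COL1A1 in U2OS but not Saos-2, and COL1A2 in neither. RUNX2 had a hotspot at its start in both lines, and ALPL had one there in neither. Among genes of other cell types, ALB and EPCAM had none in either line, while PTPRC and GFAP had some in both. Over all protein-coding genes 64.8% had a hotspot in Saos-2 and 70.7% in U2OS, so these few genes do not settle the cell type.

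The promoters of 7 members or pairs are shown first, because they cover the 3 outcomes met below: a hotspot in both lines, one in Saos-2 but not U2OS, and none. The bases are from RefSeq, GRCh38.p14, and run 5′ to 3′ on the strand given. For head-to-head pairs they fill the gap between the 2 starts, and for single genes they are the 150 bases before the start. Capitals mark 4 motifs searched on both strands: the octamer ATTTGCAT, which POU2F1 binds, the CCAAT box, the TATA box TATAAA, and GGTCCG, the core of an element known from H4 promoters. The first 3 lines are head-to-head H2A and H2B pairs with hotspots in both lines, in Saos-2 only and in neither. The others are H4C8 (both), H4C6 (Saos-2 only), H4C14 (neither, and identical to the H4C15 window) and the linker gene H1-5 (neither).
H2BC21 and H2AC20 (chr1:149886683-149886917, plus strand): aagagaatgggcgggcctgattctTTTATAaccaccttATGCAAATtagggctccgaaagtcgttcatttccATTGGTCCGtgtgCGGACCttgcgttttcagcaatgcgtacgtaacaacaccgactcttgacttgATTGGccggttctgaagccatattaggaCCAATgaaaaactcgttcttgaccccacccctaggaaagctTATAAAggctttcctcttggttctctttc
H2BC8 and H2AC8 (chr6:26216689-26216920, plus strand): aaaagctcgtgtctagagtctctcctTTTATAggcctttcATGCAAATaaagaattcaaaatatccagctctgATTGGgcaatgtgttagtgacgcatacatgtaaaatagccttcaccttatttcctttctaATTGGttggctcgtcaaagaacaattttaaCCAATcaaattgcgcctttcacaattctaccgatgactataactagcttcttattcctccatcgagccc
H2AC14 and H2BC14 (chr6:27814778-27815021, plus strand): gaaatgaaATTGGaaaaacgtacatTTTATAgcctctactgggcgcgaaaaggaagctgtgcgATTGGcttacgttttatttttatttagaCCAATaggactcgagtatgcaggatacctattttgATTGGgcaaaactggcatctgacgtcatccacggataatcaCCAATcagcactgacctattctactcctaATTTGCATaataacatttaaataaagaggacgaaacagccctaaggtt
H4C8 (chr6:26285535-26285684, minus strand): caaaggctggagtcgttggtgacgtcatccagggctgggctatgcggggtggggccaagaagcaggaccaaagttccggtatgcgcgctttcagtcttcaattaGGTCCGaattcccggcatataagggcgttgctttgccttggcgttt
H4C6 (chr6:26240243-26240392, plus strand): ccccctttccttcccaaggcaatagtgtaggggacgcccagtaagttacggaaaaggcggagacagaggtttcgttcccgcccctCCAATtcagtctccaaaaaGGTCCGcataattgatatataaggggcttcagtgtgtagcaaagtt
H4C14 (chr1:149832507-149832656, plus strand): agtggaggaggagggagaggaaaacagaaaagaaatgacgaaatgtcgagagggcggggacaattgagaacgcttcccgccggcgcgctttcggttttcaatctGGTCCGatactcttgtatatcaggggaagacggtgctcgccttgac
H1-5 (chr6:27867589-27867738, minus strand): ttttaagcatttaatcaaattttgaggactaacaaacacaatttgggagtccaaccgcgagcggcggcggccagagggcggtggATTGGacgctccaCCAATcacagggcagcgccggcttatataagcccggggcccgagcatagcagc

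Fewer of these genes were marked in U2OS than in Saos-2, and every member marked in U2OS was also marked in Saos-2. In Saos-2, 46 of 69 members (66.7%, 95% Wilson interval 54.9 to 76.6%) had a hotspot, close to the 64.8% of all protein-coding genes. In U2OS only 26 members did (37.7%, interval 27.2 to 49.5%), against 70.7% of all protein-coding genes. All 26 were among the Saos-2 genes, so 37.7% of members were marked in both lines where the background was 60.0%. The remaining 20 members (29.0%, interval 19.6 to 40.6%) were marked in Saos-2 only, against 4.75% of all genes. No member was marked in U2OS only (interval up to 5.27%), although 10.7% of all genes were. The intervals here and below cover counting error only, and neighbouring members share hotspots, so they are too narrow.

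Histone genes are short, and short windows catch fewer hotspots. Of the members, 61 span at most 1000 bp and the longest, H2BC18, spans 29682 bp. Among the 11118 protein-coding genes no longer than H2BC18, 49.9% had a hotspot in Saos-2, 55.6% in U2OS and 44.3% in both. In that background 5.61% of genes were marked only in Saos-2 and 11.3% only in U2OS. The order of the lines was thus opposite to that of the histone genes in either background.

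The amount of covered sequence gave the same order. Of the members, 35 (50.7%) had more hotspot-covered bases in Saos-2, 11 (15.9%) had more in U2OS, and the 23 with no hotspot were equal. Over all protein-coding genes, 29.6% had more in Saos-2 and 45.7% had more in U2OS. The median member was covered over 283 bp in Saos-2 against 0 bp in U2OS, and the median protein-coding gene over 278 and 356 bp. The covered bases of all protein-coding genes were not matched for gene length, so only the order of the lines is compared. Among the 26 members marked in both lines, the 2 directions were closer, with 15 more covered in Saos-2 against 11 in U2OS.

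**Figure D1:**
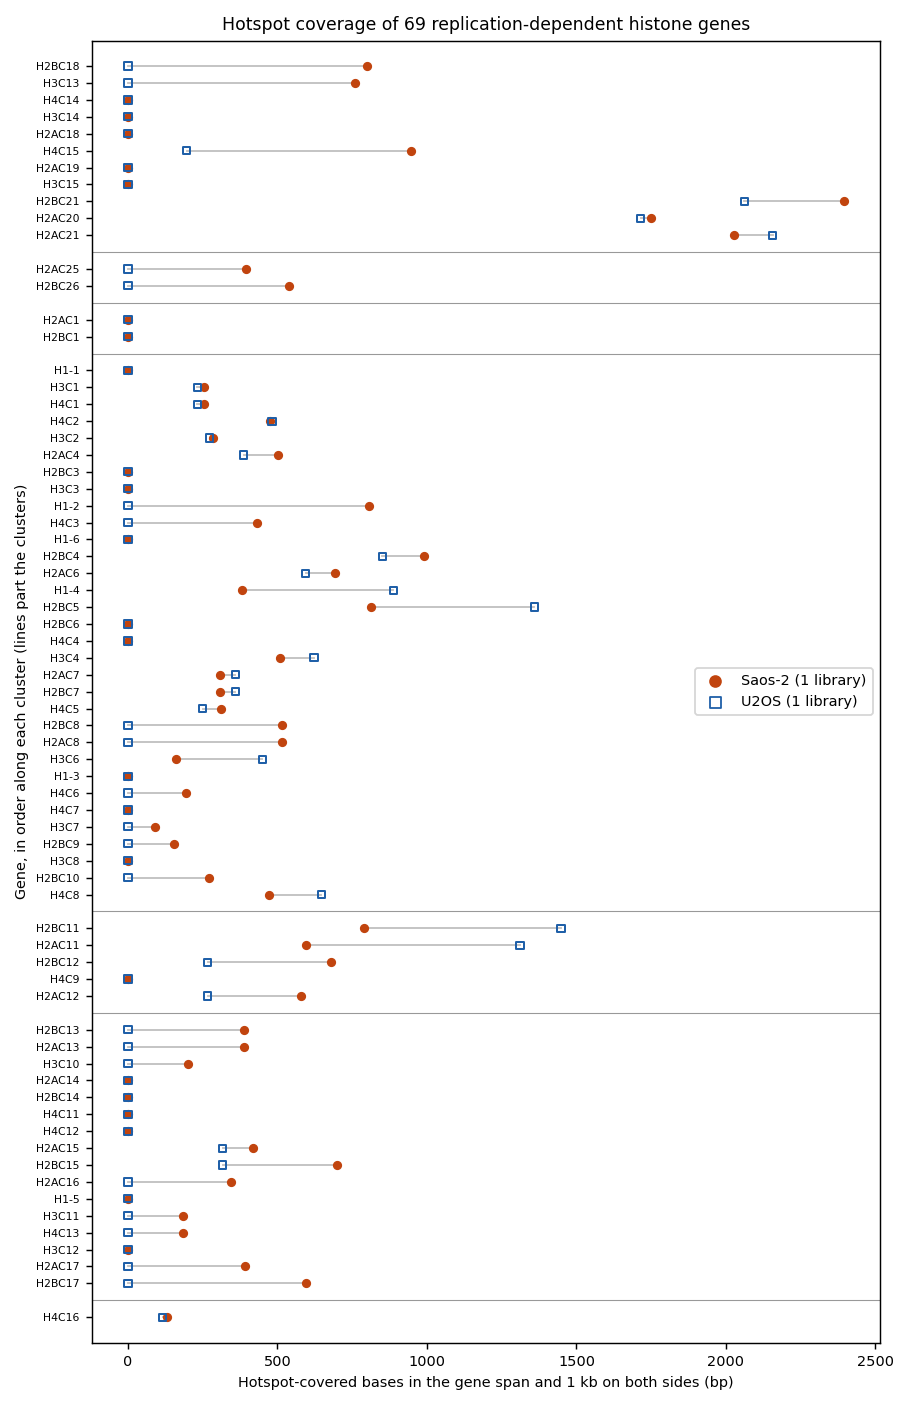
Hotspot-covered bases (bp, x axis) in the span plus 1 kb of each of the 69 genes (y axis, in order along the chromosomes, with lines between clusters), for Saos-2 (filled circles) and U2OS (open squares), 1 library each. The 20 genes with a square at 0 and a circle to its right were marked in Saos-2 only, and no gene has the opposite pattern.

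The members fall into 7 groups when neighbours more than 200 kb apart are separated. The group of 11 genes on chromosome 1 from H2BC18 to H2AC21 (149782689 to 149887965) held the most significant hotspots of both lines. A hotspot between H2BC21, an H2B gene, and H2AC20, an H2A gene, had a significance of 31.2 in Saos-2 against 14.5 in U2OS. Beside it, H2AC21 was covered over 2026 bp in Saos-2, with a significance of up to 33.4, and over 2157 bp in U2OS, with up to 20.8. These 3 genes had the highest significance among members in both lines, and their windows overlap.

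The other end of the same group differed between the lists. H2BC18 was covered over 799 bp in Saos-2 against 0 bp in U2OS. The H3 gene H3C13 next to it was covered over 759 bp in Saos-2 against 0 bp in U2OS. Their shared hotspot, at 149812142 to 149812726, had a significance of 19.3, higher than 95.2% of the Saos-2 list. The nearest U2OS hotspot was 30.5 kb from H3C13. No other Saos-2 hotspot in a member window without a U2OS counterpart was as significant. The middle of the group carried no hotspot in either line at H4C14, H3C14, H2AC18, H2AC19 and H3C15. H4C15, whose span of 16753 bp takes in H2AC19 and H3C15, had 6 Saos-2 hotspots over 948 bp and 1 U2OS hotspot over 196 bp, none of them at its start and none above a significance of 2.71.

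Those middle genes exist as near-identical copies. Every 36-base word of the 300-base promoter window of H4C14 recurred in that of H4C15. For H2AC18 and H2AC19 the share was 99.6%, and for H3C14 and H3C15 98.5%. H4C11 and H4C12 on chromosome 6 shared 54.3% with each other. Of the 64 members with a promoter entry, 13 shared words with a promoter elsewhere: 10 of them had no start hotspot in either line, 3 had one in Saos-2 only and none had one in both. The 3 were H3C13 (45.7% of words, shared with H3-7), H2AC13 and H2BC13 (24.2% each). Their counterparts H2AC14 and H2BC14, which shared 24.2% of words with H2AC13, were among the 10. Read length and the handling of reads that match several places are not given in the sources used here. The values of all 13 genes are therefore uncertain, and the part of the copies in the missing hotspots was not tested. Without the 13 genes, a comparison chosen after seeing the data, 42 of 56 members were marked in Saos-2, 25 in U2OS, 17 only in Saos-2 and 0 only in U2OS.

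A small group further along chromosome 1 consists of the head-to-head pair H2AC25 and H2BC26 (228457364 to 228458558). It was marked in Saos-2 only. The Saos-2 hotspot spanned both starts over 396 bp, with a significance of 11.6, and the nearest U2OS hotspot was 28.6 kb from H2BC26. Its windows were covered to 16.8% in Saos-2, the highest of the 7 groups.

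The largest group holds 32 genes on chromosome 6 from H1-1 to H4C8 (26017032 to 26285534). In it 23 genes were marked in Saos-2 against 15 in U2OS. The member windows were covered over 6910 bp in Saos-2 against 5327 bp in U2OS, a log2 ratio of U2OS to Saos-2 of -0.38. Shared sites included the pair H2BC4 and H2AC6, with a significance of 15.4 in Saos-2 against 7.09 in U2OS at their common promoter. At H4C8, which encodes H4, the order was the opposite, with 11.0 in Saos-2 against 13.6 in U2OS. H3C2, an H3 gene, was nearly equal, with 283 bp in Saos-2 (significance 5.38) against 273 bp in U2OS (5.78). Both hotspots at H3C2 began at base 26032043.

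The 8 genes of this group marked in Saos-2 only were H1-2, H4C3, H2BC8, H2AC8, H4C6, H3C7, H2BC9 and H2BC10. H1-2 was covered over 805 bp in Saos-2 and had none in U2OS. Most of that lies outside the gene, and with the gene span alone the difference (U2OS minus Saos-2) was -132 bp, and -535 bp with a 500 bp flank. The hotspot between H2BC8 and H2AC8 was 516 bp wide with a significance of 9.08, and the nearest U2OS hotspot lay 6.37 kb from H2AC8. H4C3 was covered over 430 bp with a significance of 7.71. The other sites were weaker: 2.75 at H4C6, 3.47 at H2BC10 and 2.10 at H2BC9, whose hotspot also falls in the window of H3C7.

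Several other genes of this group marked in both lines were close in covered length. H3C1 and H4C1, an H3 and an H4 gene, share a hotspot that covered 255 bp in Saos-2 and 232 in U2OS, with a significance of 4.37 and 2.27. H4C2 had 475 and 482 bp in that order, and H4C5 had 311 and 250 bp. H2AC4, next to H3C2, had 502 and 387 bp. The head-to-head pair H2AC7 and H2BC7 had 308 and 359 bp, with a significance of 4.46 and 4.62. In each of these genes the longer covered stretch was less than 1.5 times the shorter.

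Some genes of the group were more covered in U2OS. H2BC5 had 813 bp in Saos-2 against 1359 bp in U2OS. The same hotspots extend into the window of H1-4, which had 382 bp in Saos-2 against 888 bp in U2OS. The hotspot over the H2BC5 start had almost equal significance, at 9.70 and 9.80, but was 616 bp wide in Saos-2 against 938 bp in U2OS. A further U2OS hotspot of 212 bp, with a significance of 1.86, lies beside it in both windows. H3C6 was covered over 161 bp in Saos-2 (significance 2.36) and 449 bp in U2OS (6.17).

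The next group on chromosome 6, 5 genes from H2BC11 to H2AC12 (27132316 to 27147562), was the only one with more covered bases in U2OS. The totals were 1466 bp in Saos-2 against 1838 bp in U2OS, a log2 ratio of 0.33. The higher U2OS values lay at H2BC11 and H2AC11. H2AC11 had 596 bp in Saos-2 against 1311 bp in U2OS, and H2BC11 had 788 and 1448 bp. These differences depend on the flank: with 500 bp the U2OS excess was 100 bp at H2AC11 and 627 bp at H2BC11, and with the gene span alone 72 and 255 bp. At their shared promoter the significance was 9.11 in Saos-2 against 16.0 in U2OS. The neighbouring H2BC12 went the other way, with 678 bp in Saos-2 (significance 10.9) against 267 bp in U2OS (3.38). When only the gene spans were counted, without the 1 kb on each side, the ratio of the group changed sign to -0.14.

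The last group, 16 genes from H2BC13 to H2BC17 (27807479 to 27893891), differed most among the groups marked in both lines. Saos-2 had 8 hotspots over 2411 bp, and U2OS had 1 hotspot over 317 bp, a log2 ratio of -2.93. In Saos-2, 10 genes were marked, and in U2OS only H2AC15 and H2BC15, which share the single U2OS hotspot. That hotspot had a significance of 3.05, and its Saos-2 counterpart one of 8.63. The 8 genes marked in Saos-2 only were H2BC13, H2AC13, H3C10, H2AC16, H3C11, H4C13, H2AC17 and H2BC17. H2BC17 was covered over 594 bp in Saos-2, with a significance of 5.11, and the nearest U2OS hotspot was 54.8 kb away. The Saos-2 hotspots of these genes were of moderate strength, with significance between 2.56 and 5.37 at the strongest site of each gene. In the stronger 50% of each list, U2OS kept no hotspot in this group.

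The remaining groups were small. H2AC1 and H2BC1, a head-to-head pair of testis histone genes on chromosome 6 (25726063 to 25727345), had no hotspot in either line. The nearest lay 5.39 kb from H2AC1 in Saos-2 and 42.7 kb from H2BC1 in U2OS. H4C16, alone on chromosome 12 (14770720 to 14771131), had 1 small hotspot at its start in both lines. The Saos-2 hotspot spanned 131 bp (significance 2.51) and that of U2OS 116 bp (2.24).

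**Figure D2:**
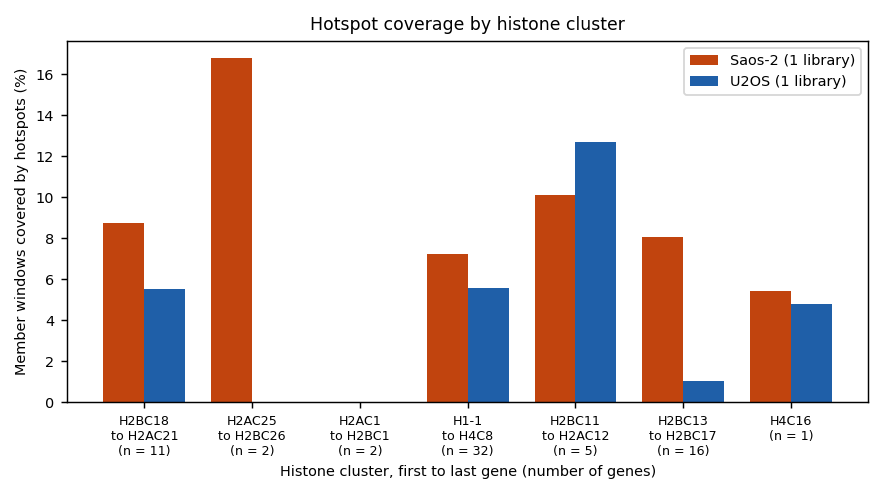
Share of the member windows (gene spans plus 1 kb) covered by hotspots (%, y axis) in each of the 7 groups of histone genes (x axis), for Saos-2 and U2OS, 1 library each and no error bars. U2OS is higher only in the group from H2BC11 to H2AC12 (12.7% against 10.1%), and in the group from H2BC13 to H2BC17 it covers 1.06% against 8.09%.

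The surroundings of the genes were compared in the same way. In all member windows together there were 52 distinct Saos-2 and 28 U2OS hotspots, a log2 ratio of -0.89, while over the whole lists the ratio was 0.30. Chromosomes 1 and 6 stood at 0.05 and -0.05, below that of the whole lists. On chromosome 6 the member windows held 33 and 21 hotspots (-0.65). The same stretch of the chromosome outside the member windows held 70 and 64 (-0.13), and 5 Mb on both sides of it held 339 and 310 (-0.13). On chromosome 1 the member windows held 18 and 6 (-1.58). With each chromosome cut to the same number of hotspots in both lines, a setting chosen after seeing the data, 46 members were marked in Saos-2, 25 in U2OS and none in U2OS only.

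Most U2OS sites at histone genes were also Saos-2 sites. Of the 28 U2OS hotspots in member windows, 24 (85.7%, interval 68.5 to 94.3%) overlapped a Saos-2 hotspot, where 46.9% of all U2OS hotspots did. Of the 52 Saos-2 hotspots, 24 (46.2%, interval 33.3 to 59.5%) overlapped a U2OS hotspot, where 58.1% of the Saos-2 list did. The list shares take in hotspots away from genes, so they are not matched to gene windows. Counted by gene over all protein-coding genes, 12030 of the 14168 marked in U2OS were marked in Saos-2 too. Of the 12981 marked in Saos-2, 12030 were marked in U2OS too. For the members these counts were 26 of 26 and 26 of 46. Of the 4 U2OS hotspots without overlap, none lay over a member's start. They fell in the windows of H4C15, H1-4 and H2BC5, H4C5, and H2AC11, with significance between 1.86 and 3.97.

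Member hotspots were of ordinary strength for their lists. Their median significance was 4.16 in Saos-2, where the whole list had 4.05, and 3.92 in U2OS, where it had 4.60. The Saos-2 hotspots without overlap had a median of 2.99 against 5.11 for those with overlap, and the corresponding medians over the whole Saos-2 list were 3.01 and 5.32. The sites without a U2OS counterpart thus had the lower median, at the histone genes and over the whole list. In the 26 overlapping pairs of member hotspots, Saos-2 had the higher significance in 17 (65.4%) and U2OS in 9. Over all 30625 overlapping pairs, Saos-2 was higher in 37.4%.

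**Figure D3:**
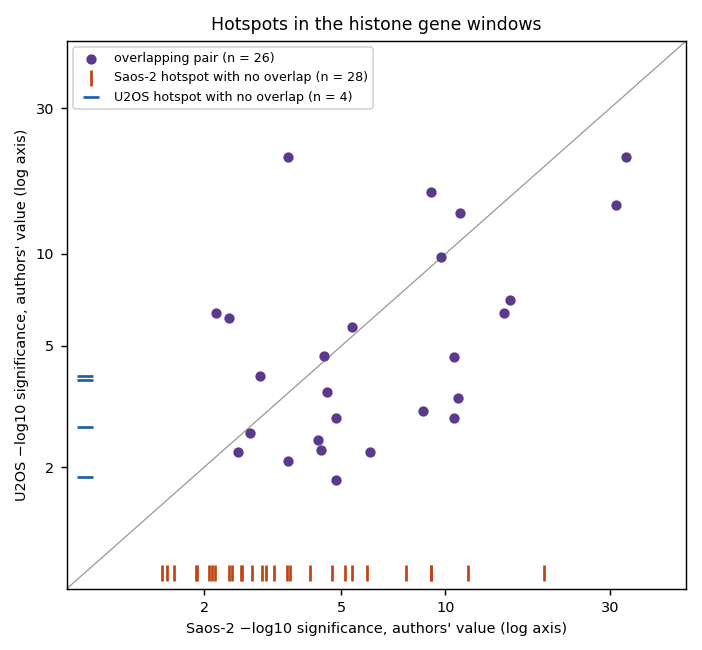
The authors' −log10 significance of hotspots in the member windows, Saos-2 on the x axis and U2OS on the y axis (both log axes), with 1 point for each of the 26 overlapping pairs and a grey line of equality. Ticks near the axes mark hotspots with no overlap: 28 in Saos-2, up to 19.3, and 4 in U2OS, up to 3.97.

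Hotspots were then placed relative to the starts given by RefSeq. A promoter entry, the 250 bases before and 50 after the start, matched 64 of the 69 members and was not found for H4C1, H4C3, H2AC12, H3C11 and H3C12. In Saos-2, 37 of 64 members (57.8%, interval 45.6 to 69.1%) had a hotspot in this window, where 43.6% of all 15843 protein-coding genes with an entry did. In U2OS, 21 members (32.8%, interval 22.6 to 45.0%) did, where 47.6% of all did. In both lines it was 32.8% of members against 39.4%, in Saos-2 only 25.0% against 4.22%, and in U2OS only 0% against 8.21%. This window has the same length for every gene, so window length does not differ between the members and the background. The start shares were not computed for short genes alone.

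Coverage peaked just before the start. In Saos-2 the peak was at 69 bp upstream of the start (a distance of -69 bp), where 57.8% of members were covered, and in U2OS at -111 bp with 32.8%. For all protein-coding genes the peaks were at -61 bp (40.5%) in Saos-2 and at -56 bp (44.6%) in U2OS. The stretch over which coverage was at least 50% of its peak ran from -315 to 95 bp in Saos-2 and from -269 to 76 bp in U2OS for the histone genes. All 13 U2OS hotspots that lay over a member's start overlapped a Saos-2 hotspot. Of the 26 Saos-2 hotspots over a start, 15 overlapped a U2OS hotspot. Counted by gene over all protein-coding genes with an entry, 6244 of the 7545 with a U2OS hotspot in the start window also had one in Saos-2. Of the 6913 with one in Saos-2, 6244 also had one in U2OS. Hotspots over a start had a median significance of 5.72 in Saos-2 against 6.17 in U2OS, and the others in the member windows 2.83 and 2.71.

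**Figure D4:**
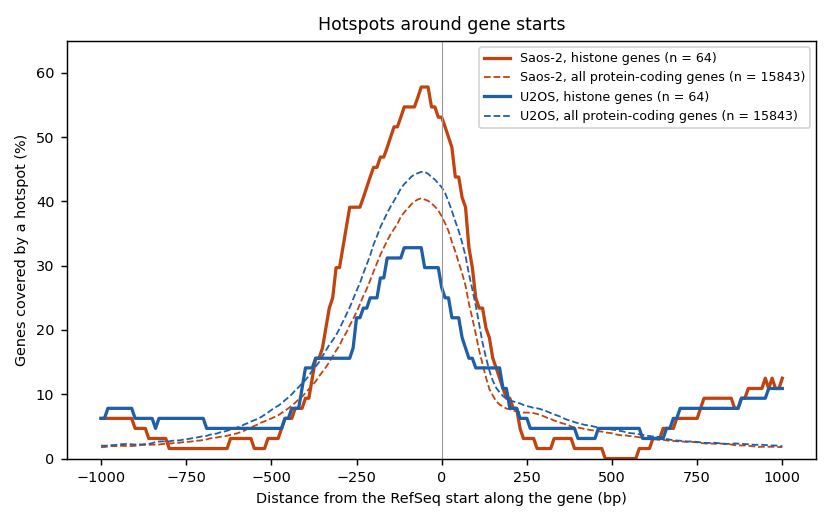
Share of genes covered by a hotspot (%, y axis) at each distance from the RefSeq start (bp, x axis, negative before the gene), for 64 histone genes (solid) and 15843 protein-coding genes (dashed), in 1 library per line. The Saos-2 histone curve peaks at 57.8%, above both dashed curves, and the U2OS histone curve at 32.8%, below both.

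The histone classes differed in how many starts were marked. Of the H2B genes, 14 of 18 had a start hotspot in Saos-2 against 7 in U2OS. Of the H2A genes, 12 of 16 did in Saos-2 against 7 in U2OS. The H3 genes had 5 of 11 in Saos-2 against 3 in U2OS, and the H4 genes 5 of 13 and 4. The H3 counts include H3C4 in both lines, although its outermost RefSeq start is also that of H2AC7. Over all protein-coding genes with an entry, 43.6% had a start hotspot in Saos-2 and 47.6% in U2OS. In Saos-2 the H2A and H2B genes lay above that share, and the H3 and H4 genes near it. In U2OS every class lay below its share, with H2A the closest. Copies with near-identical promoters are among the unmarked H2A, H3 and H4 genes, as given above. In each class the genes marked in U2OS were all marked in Saos-2.

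Linker histone genes were the least marked. Of H1-1 to H1-6, only H1-2 had a start hotspot, in Saos-2, where it was 201 bp wide with a significance of 2.36. A wider hotspot of 604 bp, with a significance of 4.69, lay beyond the gene's 3′ end at H1-2, and U2OS had none in the window. H1-4 was counted in both lines only through hotspots at or before the start of the neighbouring H2BC5. Its own start had none in either line. H1-1, H1-3, H1-5 and the testis gene H1-6 had no hotspot in their windows in either line. The nearest ones lay 3.61, 5.20, 1.41 and 3.32 kb away in Saos-2, and 3.62, 9.96, 28.2 and 14.8 kb away in U2OS. None of the 6 linker promoters shared a 36-base word with another promoter.

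**Figure D5:**
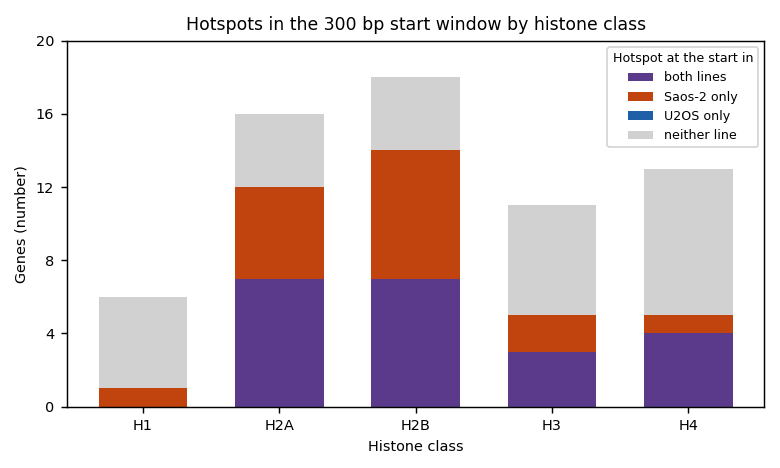
Number of histone genes (y axis) of each class (x axis) with a hotspot in the 300-base start window in both lines, only in Saos-2, only in U2OS or in neither, for the 64 members with a RefSeq promoter entry and 1 library per line. No bar holds a part for U2OS only, and in H1 5 of 6 genes are in neither.

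Head-to-head pairs with starts at most 500 bp apart numbered 11, all of an H2A and an H2B gene, with 193 to 247 bp between the starts. The gap held a hotspot in both lines for 5 pairs, in Saos-2 only for 4, in U2OS only for 0 and in neither for 2. Pairs among other genes were not counted, so whether these counts are unusual for shared promoters was not tested. The start windows of single protein-coding genes give an unmatched guide. Of these windows, 43.6% were marked in Saos-2, 47.6% in U2OS and 39.4% in both. Saos-2 alone had 4.22% and U2OS alone 8.21%. Single hotspots spanned both starts in 8 pairs in Saos-2 and in 4 in U2OS, so the 2 genes of a pair cannot be told apart by these calls. The 4 pairs marked in Saos-2 only were H2AC25 and H2BC26, H2BC8 and H2AC8, H2BC13 and H2AC13, and H2AC17 and H2BC17. The pairs without a hotspot were H2AC1 and H2BC1, and H2AC14 and H2BC14. The members of a pair share these hotspots, and in the start windows the 37 genes marked in Saos-2 and 21 in U2OS rest on fewer sites than genes.

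The promoter windows, of which 7 examples are printed above, carried the elements known from histone genes. The octamer was present in 26 of 64 member windows (40.6%) and in 1.72% of all protein-coding windows. It was found in 14 of 18 H2B and 11 of 16 H2A windows, which overlap in the head-to-head pairs, and in none of the H1 or H4 windows. Its single H3 case was H3C4, whose outermost RefSeq start is also that of H2AC7. The CCAAT box was in 84.4% of member windows and 36.4% of all, and TATAAA in 65.6% and 9.75%. GGTCCG was in 12 of 13 H4 windows and in 14.5% of all windows. In the printed H4C8, H4C6 and H4C14 sequences it sits at the same distance, beginning 46 bases before the start. On the opposite strand a CCAAT box reads ATTGG, and it can overlap GGTCCG, as it does between H2BC21 and H2AC20.

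The motifs were then counted by start hotspot, as a description with no test. The octamer was in 12 of 21 windows marked in both lines, 8 of 16 marked in Saos-2 only and 6 of 27 marked in neither. TATAAA was in 14, 8 and 20 of these windows, and the CCAAT box in 17, 16 and 21. GGTCCG was in 6, 1 and 8 of them. The histone classes are spread unevenly over these outcomes, so the counts do not compare like with like. The windows marked in neither line were 5 H1, 4 H2A, 4 H2B, 6 H3 and 8 H4 windows. No H1 or H4 window has the octamer, and the motifs were not counted by outcome within a class. The unmarked pair H2AC14 and H2BC14 had the same kinds of element as the marked pair H2BC21 and H2AC20, except GGTCCG. Both windows of the unmarked pair shared 24.2% of their 36-base words with that of H2AC13, so their missing hotspots are uncertain. Median GC content was 43.2% in member windows and 62.7% in all windows. It was 43.0% where both lines were marked, 41.8% for Saos-2 only and 47.3% for neither.

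Other genes of the histone system were counted in the same way. Of 12 histone genes listed as replication-independent, 10 were marked in each line and 9 in both. Over all protein-coding genes, 64.8% were marked in Saos-2, 70.7% in U2OS and 60.0% in both. H2AX, the variant phosphorylated at DNA breaks, was covered over 458 bp in Saos-2 against 462 bp in U2OS. H2AZ1, which encodes a variant found at promoters, had 657 and 784 bp. CENPA, the centromeric H3 variant, had 403 and 424 bp, and its significance was 10.5 in Saos-2 against 16.1 in U2OS. Of the 12 genes, 4 had more covered bases in Saos-2 against 7 in U2OS, the order seen over all protein-coding genes. H2AJ was marked in Saos-2 only and MACROH2A2 in U2OS only.

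Of 18 genes for factors that act on histone genes or their mRNAs, 15 were marked in Saos-2 against 17 in U2OS, and 7 were more covered in Saos-2 against 10 in U2OS. The shares over all protein-coding genes are those just given, and many of these genes are longer than the histone genes, which gives them longer windows. NPAT, the coactivator of the histone locus body, had a significance of 19.3 in Saos-2 against 22.6 in U2OS. SLBP, which binds the stem-loop of histone mRNAs, was covered over 222 bp in Saos-2 against 418 bp in U2OS. HINFP, an activator of H4 genes, had 436 and 411 bp. POU2F1, which binds the octamer, had 1511 and 2001 bp. CCNE1, whose product drives entry into S phase with CDK2, had no hotspot in Saos-2 against 220 bp in U2OS. LSM11, a part of the histone mRNA processing complex, had none in either line.

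Members without a hotspot numbered 23 (33.3%). Besides the 5 copied genes of chromosome 1, H2AC1 and H2BC1, and the 4 linker genes, they were H2BC3, H3C3, H2BC6, H4C4, H4C7, H3C8, H4C9, H2AC14, H2BC14, H4C11, H4C12 and H3C12. Their distance to the nearest hotspot had a median of 4.93 kb in Saos-2 and 11.2 kb in U2OS. For the 20 members marked in Saos-2 only, the nearest U2OS hotspot was 6.37 to 54.8 kb away, with a median of 26.3 kb. No such gene therefore missed the U2OS count through a hotspot just outside the window. Wider windows gave 2 genes marked in U2OS only, H2AC18 and H3C3, when 2.5 kb was added on each side, and both are among the 23.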

How the data were processed

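DNase I hypersensitive sites were measured in 1 library per line. Per the labels' protocols, nuclei were digested with DNase I for 3 min at 37 °C and libraries were amplified for 8 to 10 PCR cycles. Per the submitters' processing notes, Trimmomatic 0.38, BWA 0.7.15 and hg38 were used. The hotspot caller and read filters are not given in the sources used here. The authors deposited 1 list per library, called separately, at a false discovery rate of 0.05 by the file names. The last column of each deposited list was taken as a −log10 significance, since its lowest value is 1.30, the −log10 of 0.05, and it is capped at 100. The deposited score column follows 10 times that value and was not used.

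Gene spans came from RefSeq on GRCh38.p14, the primary sequence of which is that of hg38, and starts from its promoter windows, taking the outermost of several. Overlaps were computed in Python 3.11.15 with pandas 2.3.3 and numpy 2.4.6, and Wilson 95% intervals with scipy 1.17.1. The code was tested on simulated intervals. No test between the lines was possible. The members and lists were chosen with earlier results of these data known, and the motifs and the search for promoter copies were chosen after the values were seen. Genes named are those marked in 1 line only, the 5 per line with the highest significance, the 5 per direction with the largest difference in covered bases, the linker and testis genes, and members alone in a group. Genes outside that rule were named after their values were seen. Some of the genes listed to check the cell type are not reported here. Alternatives were other flanks, lists of equal length, the top 50% of each list, merging, stricter overlap, a wider symbol rule and another gap between groups.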

Additional observations from a re-analysis of the deposited data

How the results depend on the processing

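No paired analysis was possible because there was only 1 library of each line. No replicate could be left out. Read depth is unknown and limits every count, and the covered lengths of U2OS and Saos-2 cannot be corrected for it. Of 114 summary values recomputed under an alternative, 106 kept their direction and stayed within 1.5-fold of the deposited lists, or for shares within the Wilson interval. The 106 include the wider symbol rule and the other gap between groups, which changed no value. The ratio of the group from H2BC13 to H2BC17 in the top 50% of each list is not among the 114. It could not be formed, since U2OS had no hotspot there. With the gene span alone, 100% of U2OS member hotspots were overlapped, and the log2 ratio of covered bases in the group of H2BC12 reversed to -0.14. The number of members marked in U2OS only was 1 with a 500 bp flank (H1-4) and 2 with 2.5 kb (H2AC18 and H3C3). It was 1 in the top 50% of each list (H3C6). The share over all genes, 10.7% with the 1 kb flank and full lists, was not computed for these settings. In the top 50% of each list 16 members were marked in U2OS and 15 in both lines, and 33.3% of Saos-2 member hotspots were overlapped. With lists of equal length, 46 members were marked in Saos-2 against 23 in U2OS. The log2 ratio over all member windows lay below 0 in each alternative, between -0.83 in the top 50% and -0.50 without the genes with promoter copies. Of 368 recomputed differences for single genes, some of them from the wider symbol rule that changed nothing, 22 did not keep their sign. Of these 22, 4 had the opposite sign and the rest became 0. The cause of these changes was not tested.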
